A study of Rattus norvegicus with 12 samples.

Results

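HO15.19 cells, rat fibroblasts in which both c-myc alleles were disrupted by homologous recombination (genotype c-Myc-/-), were compared here with their parent line TGR-1, which has both alleles (c-Myc+/+), after 24 hr with DMSO, the vehicle of the study's rapamycin experiment. TGR-1 is itself an hprt-deficient subclone of Rat-1, an immortalized line of embryonic rat fibroblasts, so each genotype is represented by 1 line and an effect of c-myc cannot be told apart from other differences between the lines. The lines also differed in growth: the labels give a doubling time of 45 to 60 hr for HO15.19 and 18 to 21.5 hr for TGR-1, and 850000 HO15.19 cells and 750000 TGR-1 cells were plated. The comparison used 6 of the 12 Illumina RatRef-12 arrays of the series, 3 from HO15.19 control and 3 from TGR-1 control, made from independent biological replicates according to the methods. The other 6 arrays, from the same lines with 50 nM rapamycin, served to look at the line difference in arrays that the vehicle comparison did not use. Its members were the 9909 of 22523 probes whose signal exceeded the negative controls at a detection p under 0.05 on 3 or more of the 6 vehicle arrays. They include the probes detected on every array of 1 line and on none of the other.

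c-Myc is a transcription factor that pairs with Max and binds the E-box sequence CACGTG near gene starts, where it recruits the machinery that opens chromatin and releases RNA polymerase. It is known for driving growth: genes for ribosome assembly, translation, nucleotide synthesis and the cell cycle are among those it induces, while it represses cell cycle inhibitors, matrix genes and other genes of resting or differentiated cells, in part through Miz1. Proteins of the Mxd family also pair with Max and occupy the same sites as repressors. c-myc null fibroblasts of this line are known to be viable and to proliferate slowly.

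All levels are log2 values of the bead signal after background correction and quantile normalization with limma, and all differences are HO15.19 minus TGR-1 on this scale. A probe was called where the lines differed by 1.2-fold or more with p no higher than 0.01 in limma's test and below 0.05 after Benjamini-Hochberg adjustment. Of the 9909 probes, 3335 (33.7%) were called, 1652 higher (16.7%) and 1683 lower (17%) in HO15.19, and the median fold among them was 1.54. Median centring of the arrays over all probes, in place of quantile normalization, gave 2191 called probes, 860 higher and 1331 lower. The 3 arrays of a line did not overlap with those of the other line for 4779 probes (48.2%). At least 2-fold differences were called for 607 probes (6.13%), 337 higher and 270 lower, but for 302 on the authors' normalized values. Arrays correlated at 0.991 to 0.994 within a line and 0.959 to 0.965 between the lines. The number of detected probes per array was 9657 to 9869 in HO15.19 and 9605 to 9792 in TGR-1, and the mean raw signal was 261 to 369 in HO15.19 and 337 to 361 in TGR-1.

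Gene names were available for 1729 of the tested probes. The deposited tables name only probes selected for a change with rapamycin in either line, on arrays that include those used here. Among named probes the background was higher, with 962 called (55.6%), 480 higher (27.8%) and 482 lower (27.9%), and 70% did not overlap between the lines, and every count below for a gene group is to be read against these shares. The table that gave the names differed by group. Only the TGR-1 table named 20 of 31 ribosome biogenesis genes, 7 of 9 lipid synthesis genes and 11 of 22 interferon genes. Only the HO15.19 table named 47 of 55 loci similar to a ribosomal protein and 43 of 46 mitosis genes. This selection used vehicle arrays of 1 line, so it may shift a group's line difference, and its part was not tested. The median difference was -0.02 over all tested probes and -0.01 over the named ones. Of 15 fibroblast markers only 4 had a named probe: the matrix genes Col1a1, Col3a1 and Fn1 were detected on every array of both lines, and Lum only in HO15.19. Markers of other cell types could not be checked, since the macrophage marker Cd14, detected in both lines, was the only one with a named probe.

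The Myc probe gave 7.69, 7.94 and 7.88 in HO15.19 and 9.07, 8.97 and 9.04 in TGR-1. The groups did not overlap, and the difference was -1.19 (SE 0.11, adjusted p = 6.37e-07 from limma). The probe was nevertheless detected on every HO15.19 array, and since the sources used here do not place it relative to the disrupted part of the gene, its signal does not test the deletion. Both Mxd genes with a named probe were higher in HO15.19. Mxd3, an Mxd repressor known from proliferating cells, stood at 8.74, 9.01 and 8.46 in HO15.19 and at 7.77, 7.65 and 7.93 in TGR-1, a difference of 0.96. Mxd4, which is linked to differentiation, gave 6.29, 6.38 and 6.53 in HO15.19, all above the 5.51, 5.94 and 5.81 of TGR-1 (difference 0.65, adjusted p = 0.00188 from limma), though it was not called in the methods' two-sample test on the 6 arrays. Neither gene's lowest HO15.19 array reached down to the highest TGR-1 array. The other 10 genes listed for the network, Max and Mnt among them, had no named probe.

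Ribosome biogenesis genes were lower in HO15.19 almost throughout. Of 31 named members, 30 were called lower in HO15.19 and none higher, with a median of -0.81; the remaining one, the nucleolar chaperone Npm1, had a difference of -0.31 without overlap of the arrays. Gnl3 (nucleostemin), a nucleolar GTPase abundant in proliferating cells, gave 6.75, 6.89 and 6.91 in HO15.19 and 8.38, 8.42 and 8.79 in TGR-1. Its difference of -1.67 (SE 0.15, adjusted p = 3.1e-07 from limma) was the farthest from zero in the list. Bop1, which acts in processing of the large subunit rRNA, gave 6.86, 6.84 and 6.90 in HO15.19 and 8.03, 8.27 and 8.15 in TGR-1. The gap was far wider than the scatter of either line, which the choice of Bop1 for a large called difference favours. Mrto4, a factor of large subunit assembly (-1.21), the nucleolar Myb-binding protein Mybbp1a (-1.20) and the small subunit processome protein Wdr75 (-1.16) were lower as well. The rest of the called members lay between -1.13 and -0.42. Among the genes that c-Myc is known to induce, a list that shares several of these members, 23 of 34 were called lower and none higher (median -0.71). The 11 that were not called included the glycolytic genes Ldha (-0.05), Tpi1 (-0.02) and Pgk1 (-0.01), and Odc1 (0.19), which makes putrescine.

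The E-box CACGTG, which reads the same on both strands, was searched in RefSeq promoter windows of assembly GRCr8, from 250 bases before to 50 after each gene start. It occurred in 6.42% of 33469 windows. Counted per gene, with a match in any window of the gene as in the shares below, it occurred in 7.08% of 27457 genes. Among the tested members with a window, called or not, it was found in 9 of 29 ribosome biogenesis genes (31%), 3 of 10 ribosomal protein genes (30%), 8 of 31 genes of the induced list (25.8%), 7 of 28 of the translation list (25%), 4 of 18 ATF4 and CHOP genes (22.2%), 2 of 21 of DNA replication (9.52%) and 2 of 37 of mitosis (5.41%). The other 7 lists with a window for at least 80% of their members held it in 0 to 2 genes each. These include polyamine enzymes (1 of 5, 20%) and glycolysis (2 of 10, 20%). Among the lists with windows for fewer members, it was found in 4 of 12 genes listed as repressed by c-Myc (33.3%). Immediate early genes had it in 3 of 11 (27.3%), and the rest of these lists in 0 to 2 genes each. High shares were thus not confined to the growth groups. Over the 1272 named genes with a window the share was 11.5%, with 14.4% of those called lower and 8.76% of those called higher, but fewer than 80% of the named genes had a window, so a comparison with the named set is void. The sequences below are 80 bases of the windows with the E-box in capitals, 5′ to 3′ in the direction of the gene, shown because these genes are members of the growth groups that were lower in HO15.19. They lie at chr16:6219783-6219862 (minus strand), chr10:57555265-57555344 (plus), chr9:55395035-55395114 (plus), chr5:164308792-164308871 (plus), chr7:25102934-25103013 (minus), chr9:21981632-21981711 (minus) and chr19:66872549-66872628 (minus), all upstream of the annotated start.
Gnl3: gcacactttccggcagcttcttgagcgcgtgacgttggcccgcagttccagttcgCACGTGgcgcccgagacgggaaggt
Mybbp1a: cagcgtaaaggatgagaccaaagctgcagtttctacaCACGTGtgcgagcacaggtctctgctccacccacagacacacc
Wdr75: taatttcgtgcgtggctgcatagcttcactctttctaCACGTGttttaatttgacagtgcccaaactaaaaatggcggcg
Srm: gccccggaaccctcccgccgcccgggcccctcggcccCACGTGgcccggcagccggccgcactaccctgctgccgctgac
Utp20: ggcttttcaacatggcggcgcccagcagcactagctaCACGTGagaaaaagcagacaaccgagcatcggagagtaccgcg
Dnph1: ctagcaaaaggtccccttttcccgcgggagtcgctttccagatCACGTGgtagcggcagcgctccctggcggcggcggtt
Slc7a5: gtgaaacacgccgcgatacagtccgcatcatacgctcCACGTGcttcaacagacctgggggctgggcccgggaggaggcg
A match is a description of the window and was not tested as a binding site. The first base of the E-box lies 25 bases before the start in Gnl3 and 37 before it in Dnph1, a nucleotide hydrolase (difference -1.04), and between 127 and 179 bases before it in the other 5. The differences of the others were -1.15 for Srm, -1.08 for Utp20, a processome component, and -0.75 for the leucine transporter Slc7a5. Exosc5 (-0.81), Utp18 (-0.57), Utp4 (-0.50) and Ran (-0.39), also called lower in these groups, had the E-box upstream as well and are not shown.

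**Figure D1:**
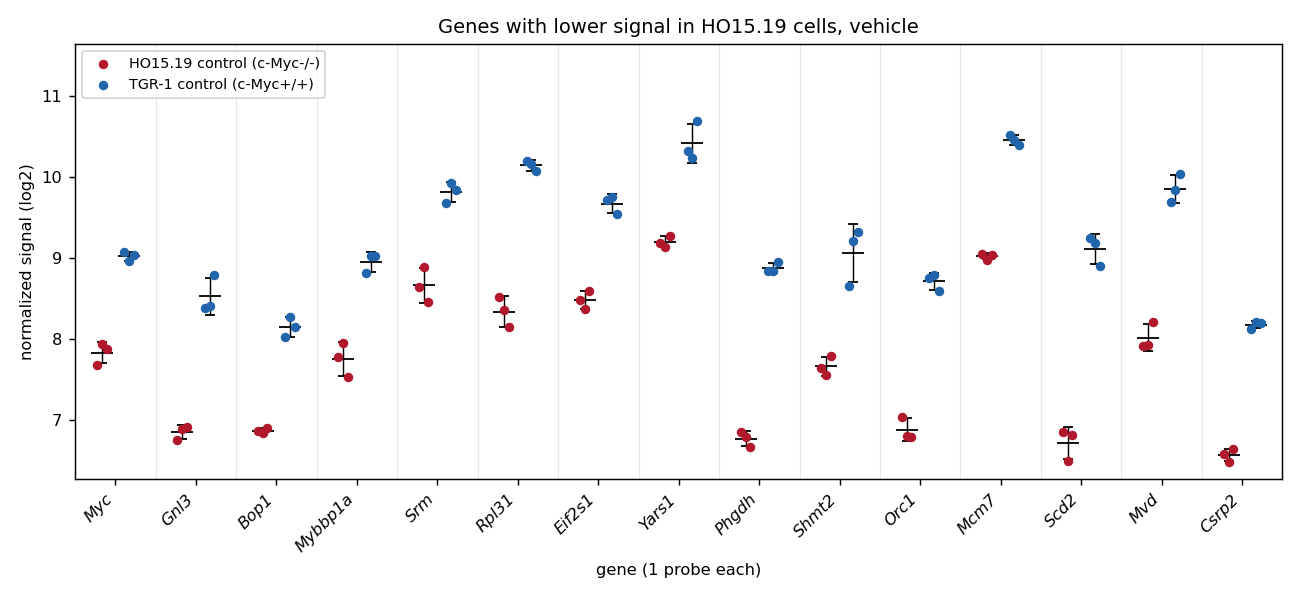
Normalized log2 signal on each vehicle array for 15 genes that were called lower, HO15.19 control in red at the left of each pair and TGR-1 control in blue at the right, with the mean and SD (n = 3) in black. The lines are separated in every gene, from Scd2 with a difference of -2.40 to Srm with -1.15. Most of the genes were picked for large called differences, which favours such separation.

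Ribosomal protein genes were lower too. Of 12 named members, 11 were called lower and none higher (median -0.62), and Rpl21 alone stood near zero (-0.02). Rpl31, a protein of the large subunit, gave 8.52, 8.36 and 8.15 in HO15.19 and 10.21, 10.16 and 10.07 in TGR-1, a difference of -1.80 that set it apart from the rest, which lay between -0.95 for Rps12 and -0.38. A further 55 named probes carry predicted loci described as similar to a ribosomal protein. These were grouped after their values had been seen, and they share near-identical sequence with the true genes, so their signals cannot be assigned with certainty. All 55 had a negative difference, 50 were called lower, the median was -0.81 and the farthest from zero was -1.81, for LOC502599, similar to S26, which was detected on only 1 HO15.19 array.

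Translation factors and tRNA synthetases gave 25 called lower and 1 higher of 34 (median -0.68). The synthetases, which charge tRNAs with their amino acids, were led by Yars1, at 9.19, 9.14 and 9.28 in HO15.19 and 10.32, 10.24 and 10.69 in TGR-1 (difference -1.21), and by Mars1 (-1.10). Among the factors, Eif2s1, the alpha subunit of the initiation factor that stress kinases phosphorylate, had a difference of -1.19, Eif3e of -1.14 and the elongation factor Eef2 of -1.10. All 3 had HO15.19 arrays below every TGR-1 array. Eif1, which guards start codon choice, was the single member called higher (0.63).

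Enzymes that make serine and one-carbon units were all lower, 5 of 5 with a median of -1.04. Phgdh, which draws 3-phosphoglycerate into serine synthesis, gave 6.85, 6.79 and 6.68 in HO15.19 and 8.84, 8.84 and 8.95 in TGR-1. The difference of -2.11 (SE 0.12, adjusted p = 1.44e-09 from limma) equals a 4.31-fold lower signal. Shmt2, which splits serine in mitochondria, gave 7.65, 7.56 and 7.79 in HO15.19 and 8.65, 9.21 and 9.33 in TGR-1; the TGR-1 arrays scattered more, yet none came near the HO15.19 range. Gcsh of the glycine cleavage system (-1.04), Mthfd1l (-0.76) and Psph (-0.42) followed. Of 9 named genes of nucleotide synthesis only 3 were called, all lower: Rrm1, the large subunit of ribonucleotide reductase (-0.99), Cad, which starts pyrimidine synthesis (-0.93), and Dhodh (-0.81).

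The polyamine genes did not move as a group. Srm, which makes spermidine, gave 8.65, 8.89 and 8.47 in HO15.19 against 9.68, 9.93 and 9.84 in TGR-1 and was called lower, as was Amd1 (-0.47, not called without HO15.19 replicate 3 or in the methods' test), whereas Sat1, which acetylates polyamines for export, was higher (1.15). Odc1 gave 9.38, 9.50 and 9.06 in HO15.19 and 9.09, 9.10 and 9.18 in TGR-1. The Odc1 arrays of the lines overlapped and the difference of 0.19 was not called (adjusted p = 0.291 from limma). In glycolysis 4 of 11 were called lower, Pfkfb1 (-0.83), Pfkp (-0.75), Eno1 (-0.69) and Eno3 (-0.64), and Aldoa was called higher (0.41), though not with arrays centred on their median.

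In lipid synthesis 8 of 9 named members were called lower and none higher (median -1.34). Scd2, a desaturase that makes monounsaturated fatty acids, gave 6.85, 6.49 and 6.81 in HO15.19 and 9.25, 9.19 and 8.90 in TGR-1, a difference of -2.40 (SE 0.16, adjusted p = 6.8e-09 from limma). The other 7 belong to the mevalonate and sterol pathway. Mvd, which makes isopentenyl diphosphate, gave 7.91, 7.93 and 8.21 in HO15.19 and 9.69, 9.84 and 10.04 in TGR-1. The absence of overlap was a condition of its choice. Idi1 (-1.51), Cyp51 (-1.48), Sc5d (-1.32), Sqle (-1.24) and Nsdhl (-0.87) covered later steps of the same route. The lipoprotein receptor Vldlr (-0.06) was not called. Of the genes named for the size of their difference, LOC497821, a hypothetical gene, had -2.70, and Acsm1, an acyl-CoA synthetase that was detected on only 1 HO15.19 array, had -2.32.

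Most genes of DNA replication were lower in HO15.19, whereas most of those of mitosis were not called. In the replication list 21 of 25 were called lower and 1 higher (median -0.66). Orc1, a subunit of the origin recognition complex, gave 7.04, 6.81 and 6.79 in HO15.19 and 8.76, 8.79 and 8.60 in TGR-1 (difference -1.83). Mcm7, part of the replicative helicase, gave 9.05, 8.98 and 9.05 in HO15.19 and 10.52, 10.46 and 10.40 in TGR-1. Both genes were separated by far more than their scatter, which their choice for large called differences favours. Mcm3 (-1.24) and Mcm10 (-1.11) were lower too, and H2ax, a histone variant phosphorylated at DNA breaks, was called higher (0.70). In the mitosis list 13 of 46 were called lower and 2 higher (median -0.15), with the condensin subunit Ncapg (-0.86), the centromere proteins Cenpi (-0.84) and Cenpk (-0.82), the centriole kinase Plk4 (-0.72) and cyclin A2 (Ccna2, -0.62) the lowest. Mki67, a general marker of cycling cells, had -0.26, Cdk1 -0.33 and Plk1 0.10, none of them called. Doubling time is longer in HO15.19. With 1 line per genotype it cannot be told apart from the other line differences, here or in the other lists. Its part in the result was not tested.

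Of 8 named G1 regulators 4 were called higher and 1 lower (median 0.20). Cyclin D1 (Ccnd1), which activates Cdk4 and Cdk6, gave 11.81, 11.89 and 11.75 in HO15.19 and 10.78, 10.74 and 10.95 in TGR-1 (difference 1.00, SE 0.11, adjusted p = 3.85e-06 from limma). Cyclin G1 (Ccng1), a p53 target, gave 13.11, 13.12 and 13.11 in HO15.19 and 11.69, 11.62 and 11.58 in TGR-1, a difference of 1.48. The Id2 transcription regulator (0.90) and cyclin G2 (Ccng2, 0.46) were higher as well, the call of Ccng2 being lost under centring on all probes and without HO15.19 replicate 1, HO15.19 replicate 2 or TGR-1 replicate 3. E2f8, an atypical E2F, was called lower (-0.94). The list of genes that c-Myc is held to repress, drawn from general knowledge, shares Ccnd1, Id2, Fn1, Ctsb and further members with other lists. Of its 18 named genes, 11 were called higher and 2 lower (median 0.57). Col6a1 (1.28), fibronectin (Fn1, 1.19), cathepsin B (Ctsb, 1.11) and Klf4 (1.02) were among the higher. Caveolin 1 (Cav1) was the exception with the largest difference, at 7.78, 8.13 and 7.64 in HO15.19 and 9.01, 8.99 and 9.11 in TGR-1.

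Matrix and secreted genes were higher in HO15.19. Of 20 named collagens and structural matrix genes, 13 were called higher and 1, Fbln1 (-0.67), lower (median 0.57). Asporin (Aspn), a small leucine-rich proteoglycan, gave 9.15, 9.08 and 9.18 in HO15.19 and 6.53, 6.18 and 6.51 in TGR-1, a difference of 2.72. Fibronectin gave 13.62, 13.59 and 13.53 in HO15.19 and 12.29, 12.56 and 12.33 in TGR-1, so that it was bright in both lines and the arrays did not overlap. Mfap5, a microfibril protein, had 1.41. The main fibrillar collagens stood apart from these: Col1a1 (0.29) and Col3a1 (0.34) were not called.

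Of 12 matricellular proteins and proteases 10 were called higher and 1, Ccn5 (-0.62), lower (median 0.84). Matrix Gla protein (Mgp), an inhibitor of calcification, was detected on all HO15.19 arrays at 9.11, 8.79 and 8.75 and on no TGR-1 array, and was at least 15-fold higher in HO15.19. The collagenase activator stromelysin 1 (Mmp3) gave 9.57, 10.26 and 9.83 in HO15.19 and 5.80, 5.59 and 5.87 in TGR-1, a difference of 4.13 or 17.5-fold. Ltbp2, which is a component of elastic microfibrils, had 2.33, osteopontin (Spp1) 1.65 and Ecm1 1.21. In each of these 5 genes every HO15.19 array lay above every TGR-1 array, which for Mgp, Mmp3 and Ltbp2 was a condition of their choice.

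Growth factors, receptors and adhesion molecules gave 12 called higher and none lower of 17 (median 0.64). Follistatin (Fst), which binds activin, gave 8.88, 8.75 and 8.81 in HO15.19 and 7.08, 7.02 and 7.17 in TGR-1. TGF-alpha (Tgfa), a ligand of the EGF receptor, had a difference of 1.43, Icam1 1.40, the laminin receptor subunit Itga7 1.31 and macrophage colony stimulating factor (Csf1) 1.14. No named member of this list was called lower.

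Interferon and inflammatory genes, a list that also holds Icam1, had 19 of 22 called higher and none lower (median 0.86). The chemokine Cxcl12 gave 9.40, 9.38 and 9.42 in HO15.19 and 6.77, 6.83 and 6.70 in TGR-1. Irf7, the transcription factor that amplifies interferon production, gave 8.23, 8.43 and 8.15 in HO15.19 and 6.24, 5.76 and 6.18 in TGR-1 (difference 2.21, SE 0.14, adjusted p = 4.35e-09 from limma). In both genes the spread within a line was small beside the gap, which their choice for large called differences favours. The monocyte chemokine Ccl2 (1.80) and the interferon-induced Ifi27 (1.66) came next, followed by the complement proteases C1s (1.45) and C1r (1.44). Ptgs2 (-0.14), Psmb10 (0.21) and Cxcl1 (0.35) were not called.

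In the redox list 10 of 21 were called higher and 2 lower (median 0.23). Aldh3a1, which oxidizes aldehydes, gave 9.44, 9.51 and 9.18 in HO15.19 and 6.27, 6.39 and 6.02 in TGR-1, an 8.90-fold difference. Nqo1, a quinone reductase, had a difference of 1.72, metallothionein 1 (Mt1) 1.64, extracellular superoxide dismutase (Sod3) 1.63 and heme oxygenase 1 (Hmox1) 1.27, while thioredoxin reductase (Txnrd1) was lower (-0.74). Of 10 lysosome and autophagy genes 7 were called higher and none lower (median 0.75), led by the autophagy receptor Sqstm1, at 10.60, 11.05 and 10.48 in HO15.19 and 9.45, 9.46 and 9.62 in TGR-1, and followed by progranulin (Grn, 1.14) and Ctsb (1.11).

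Among the chaperones, 4 of 17 were called higher and 6 lower (median -0.15). The small heat shock protein alpha-B crystallin (Cryab) gave 11.19, 10.85 and 10.91 in HO15.19 and 6.28, 6.46 and 6.51 in TGR-1, a difference of 4.57 or 23.7-fold. Hspb1, another small heat shock protein, had 0.82, which was no longer called with arrays centred on the median of all probes. Hsp90aa1 (-1.02), Hsp90b1 (-0.81) and the chaperonin subunit Cct7 (-0.72) were lower.

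**Figure D2:**
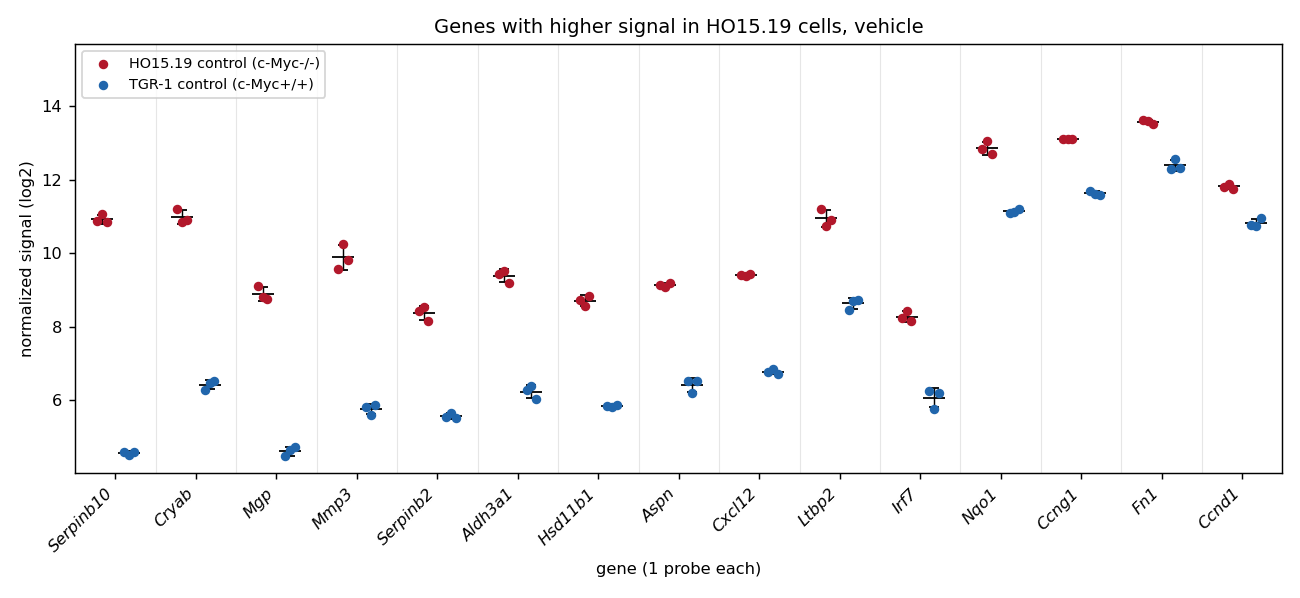
Normalized log2 signal on each vehicle array for 15 genes that were called higher, HO15.19 control in red at the left of each pair and TGR-1 control in blue at the right, with the mean and SD (n = 3) in black. Serpinb10 and Mgp were not detected on any TGR-1 array, and the lines are separated in every gene shown. Most of the genes were picked for large called differences, which favours such separation.

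The other lists gave few or mixed calls. Of 20 ATF4 and CHOP stress genes 9 were called lower and 4 higher (median -0.26). The lower members were led by Phgdh and asparagine synthetase (Asns), which gave 6.51, 6.60 and 6.20 in HO15.19 and 7.95, 7.83 and 8.08 in TGR-1, and included the arginine transporter Slc7a1, at 5.44, 5.58 and 5.83 in HO15.19 and 6.52, 6.83 and 6.49 in TGR-1. The higher ones were Ddit3 (CHOP, 0.85), Trib3 (0.71), Chac1 (0.65) and Ppp1r15a (0.42), all linked to the CHOP arm of the response. Nuclear genes of mitochondrial respiration and translation gave 9 lower and 2 higher of 19 (median -0.18), with Tomm70, an import receptor, at -0.92 and Ndufa1 of complex I at 0.91. Amino acid transporters and the mTOR pathway gave 3 lower and 2 higher of 9 (median -0.16), the higher ones being Tsc2 (0.76) and Pdpk1 (0.50, no longer called with arrays centred on the median of all probes). With rapamycin neither Tsc2 (0.41) nor Pdpk1 (-0.08) was called.

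Contractile and SRF target genes gave 5 lower and none higher of 12 (median -0.15). Csrp2, a LIM protein of smooth muscle and stellate cells, gave 6.58, 6.49 and 6.64 in HO15.19 and 8.13, 8.22 and 8.20 in TGR-1, and the others lay between -0.51 for Myl9 and -0.35 for Tpm1, whose call was lost without HO15.19 replicate 1, TGR-1 replicate 1 or TGR-1 replicate 3, under centring on all probes and in the methods' test. Immediate early genes gave 5 higher and 1 lower of 16, with a median of 0.04 that changed sign when arrays were centred on their median, without HO15.19 replicate 3 (-0.03) and without TGR-1 replicate 1 (-0.01). The phosphatase Dusp1, which switches off MAP kinases, was the highest, at 12.23, 11.97 and 12.21 in HO15.19 and 10.81, 10.72 and 10.96 in TGR-1. Fos, detected only in TGR-1, was the lower one.

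**Figure D3:**
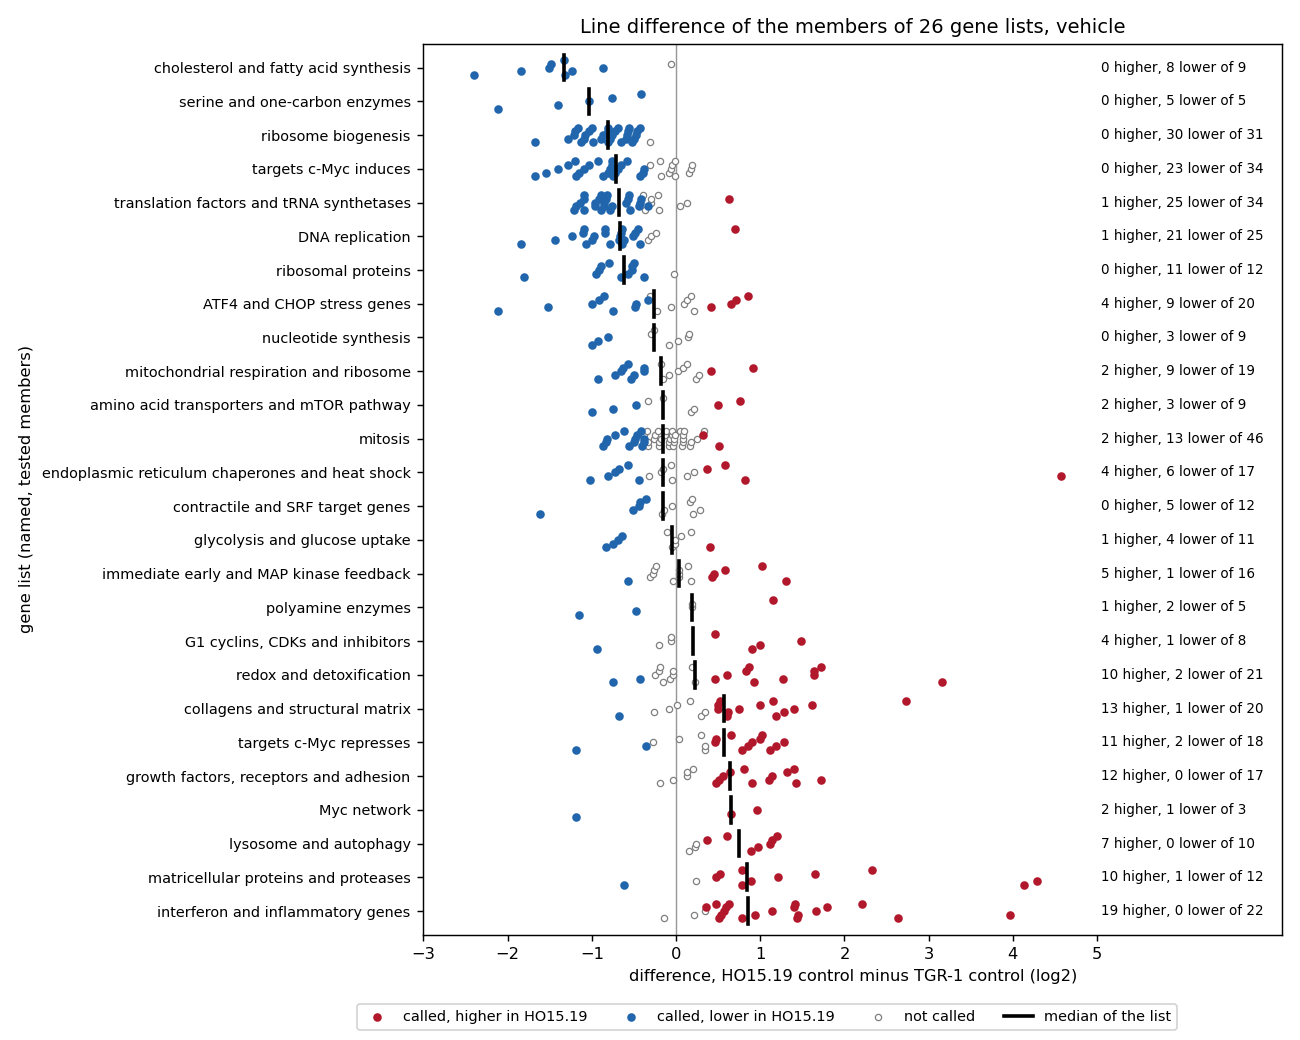
Difference HO15.19 control minus TGR-1 control (log2, horizontal axis) of each named, tested member of 26 gene lists (vertical axis), ordered by median from lowest at the top. Filled points were called, red higher and blue lower in HO15.19, open points were not, black bars mark medians, and the counts stand at the right. Cholesterol and fatty acid synthesis is at the top (-1.34), and interferon and inflammatory genes at the bottom (0.86).

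Probes detected in 1 line only numbered 260 of 22523 (1.15%), 167 in HO15.19 and 93 in TGR-1. Most were dim: the median level in the line where they were detected was 5.30 for the HO15.19 probes and 5.25 for the TGR-1 probes, close to the lowest detected signals of 4.95 to 4.99 on the vehicle arrays. A name was available for 15 of the HO15.19 probes and 6 of the TGR-1 probes. These counts depend on the cut: 111 probes remained where the other line had to have a detection p above 0.1, 96 over all 6 arrays of each line, and 393 qualified without HO15.19 control replicate 3. Since detection chose these probes, no separate count of calls or p-value is given for them here. Those that were called remain in the totals and list counts above, Mgp, Lum, Tfrc and Fos among them. Serpinb10, a serpin of the clade B, gave 10.87, 11.06 and 10.84 in HO15.19 and 4.58, 4.51 and 4.59 in TGR-1, where it was not detected. It was at least 61.5-fold higher in HO15.19, a bound set by the lowest signal of any detected probe on each TGR-1 array. Mageb7, of the melanoma antigen family, was at least 5.61-fold higher in HO15.19, the protease inhibitor Slpi at least 4.33-fold and the chemerin gene Rarres2 at least 3.36-fold. Lower bounds between 1.75-fold and 2.84-fold held for LOC690312, Pla2g2a, Slurp1, Cyp11b1, lumican (Lum), LOC497742 and Pink1. Related to Serpinb10 by family, Serpinb2 was detected in both lines and gave 8.42, 8.53 and 8.15 in HO15.19 and 5.53, 5.64 and 5.49 in TGR-1.

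In the other direction Npepl1, an aminopeptidase-like gene, gave 4.65, 4.67 and 4.89 in HO15.19, where it was not detected, and 7.10, 6.77 and 7.05 in TGR-1, so that it was at least 4-fold lower in HO15.19. The transferrin receptor (Tfrc), which takes up iron and is a known c-Myc target, gave 4.70, 4.65 and 4.76 in HO15.19 and 6.36, 6.26 and 6.11 in TGR-1, at least 2.41-fold lower. The small GTPase Rrad was at least 1.88-fold and Slc25a48 at least 1.67-fold lower. Fos, an immediate early transcription factor, gave 4.70, 4.66 and 4.74 in HO15.19 and 5.31, 5.26 and 5.25 in TGR-1, near the detection limit, with a bound of 1.23-fold. Its call, counted in the immediate early list, was lost on the authors' normalized values, with no background correction and under centring on the tested probes. Zxdc, also near the limit, had a bound of 1.18-fold.

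The 6 rapamycin arrays gave the line difference a second time on separate arrays, although normalization and the estimate of the spread were shared. Of the 3335 probes called with vehicle, 3246 (97.3%) had the same sign with rapamycin and 2404 (72.1%) were also called with that sign, against 33.5% of all tested probes called there, while 4 were called with the opposite sign. Cryab had 4.17 with rapamycin and Mmp3 4.05. Among the lower genes Phgdh had -2.76, Scd2 -2.23, Orc1 -2.20 and Gnl3 -1.47, and Myc itself -1.53. Odc1, not called with vehicle, had 1.02. Of the mitosis list 40 of 46 were called lower and none higher with rapamycin (median -0.73), where 30.7% of the named probes were called lower, against 13 with vehicle. For DNA replication these were 25 of 25 with a median of -1.37. Names come from tables selected for a rapamycin change, with 43 of the 46 mitosis genes and 23 of the 25 replication genes named in the HO15.19 table only, so that the members were selected partly on these rapamycin arrays and their counts there are a description only. The interferon list had 11 called higher and 1 lower with a median of 0.36, and Mxd3 had 0.28 and was not called. A test of the dependence on treatment was run per probe and not for lists, so these list counts are given side by side without one.

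**Figure D4:**
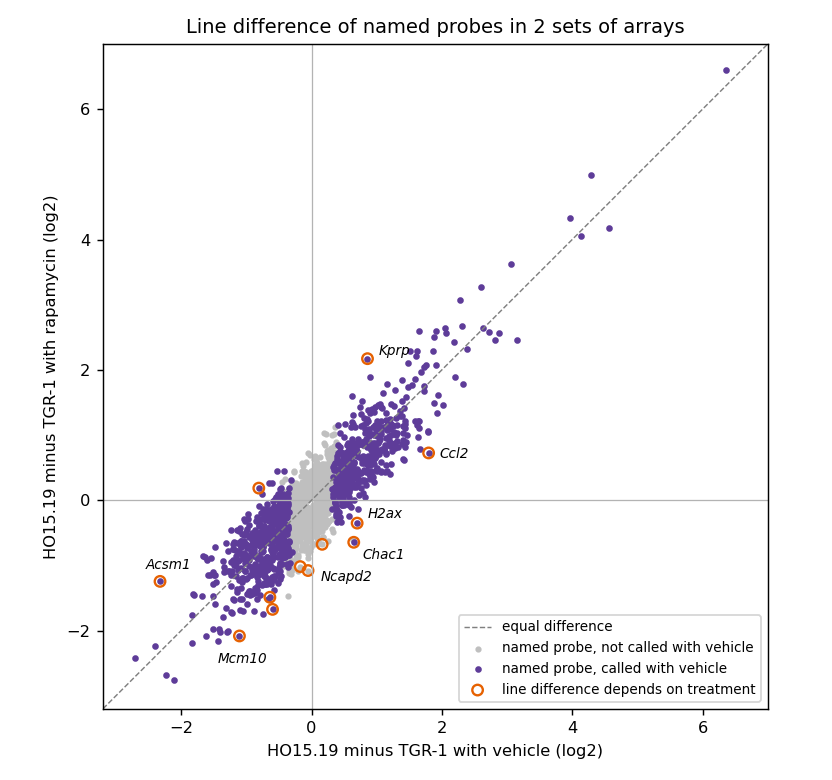
Line difference HO15.19 minus TGR-1 (log2) of the 1729 named probes with vehicle (horizontal axis) and with rapamycin (vertical axis), purple where called with vehicle and grey where not. Orange rings mark the 12 probes whose line difference depended on treatment in limma, and the dashed line marks equal differences. Serpinb10 lies at the upper right, where its position rests on TGR-1 signals with vehicle that were not detected.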

How the data were processed

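Per the labels and the study's methods, total RNA was labelled and hybridised to Illumina RatRef-12 arrays. Signal intensities, deposited by the authors without normalization, are mean bead signals from BeadStudio, and no source used here says if BeadStudio subtracted a background. The deposited detection p-values are BeadStudio's too. A second set of intensities deposited by the authors was quantile normalized in BeadStudio and served as an alternative. The deposited comparison tables, made in Partek 6.3, hold the authors' fold changes and p-values for rapamycin, which were not used; only probe names were taken from them and updated to current symbols by Entrez identifier (1551 probes) or accession (2), with 181 kept as listed.

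In R 4.3.3 with limma 3.58.1, neqc corrected the background from the detection p-values, quantile normalized the 12 arrays and returned log2 values (offset 16). Means of the 4 groups were fitted over the 12 arrays with lmFit and eBayes (degrees of freedom: 8 residual, 8.17 prior), tests being two-sided; the number of arrays limits the precision. The threshold follows the methods. A gene with several probes was represented by the brightest over the 6 arrays. For a probe not detected on any array of 1 line, a fold is a lower bound, the mean of the detected line against, per array of the other line, the higher of the lowest detected signal and the probe's own. The comparison, its members and the gene lists, from general knowledge, were chosen with earlier results of these data known. Named genes are, per direction, the 15 largest differences among called probes without overlap, up to 12 named probes detected in 1 line only, the Myc network, Odc1, Phgdh and Ccnd1, and up to 5 called members per list; other members named as exceptions or examples were chosen after their values were seen. For the genes chosen by the 15 largest differences, separation of the lines was a condition of the choice. For called list members chosen by the size of their difference, the choice favoured separation. Promoter windows are RefSeq's for GRCr8. The fit was tested on simulated data. Alternatives changed the detection filter, the background step, the normalization, the variance moderation, the weights, the test and the block, or left out an array. Same-numbered arrays of the lines did not deviate together (correlations 0.07, -0.25 and -0.15), so numbers were not taken as pairs. Chip identities, which the files do not name, could not be used as a block. Some named genes are left out of the text.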

Additional observations from a re-analysis of the deposited data

Results flagged for a closer look

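For 12 probes, all of them with a name, the difference between the lines depended on treatment, in a limma test of the line difference with vehicle minus the line difference with rapamycin. Over all 9909 probes 1003 had an unadjusted p under 0.05. The value was 1.29 for Chac1 (0.65 with vehicle and -0.65 with rapamycin), 1.07 for Ccl2 (1.80 and 0.73), 1.05 for H2ax (0.70 and -0.35), 1.03 for Ncapd2 (-0.05 and -1.08), 1.08 for LOC684490 (-0.60 and -1.67), 0.98 for Mcm10 (-1.11 and -2.08), 0.85 for Pold1 (-0.64 and -1.49), 0.84 for Incenp (-0.17 and -1.02), 0.84 for Kif20a (0.16 and -0.68), -1.31 for Kprp (0.86 and 2.17), -1.08 for Acsm1 (-2.32 and -1.25) and -0.99 for LOC306428 (-0.81 and 0.19). Adjusted p-values from limma lay between 0.011, for H2ax and Kprp, and 0.0405. All 12 are named because the authors' tables selected probes for a rapamycin change, and names for other probes were not used here. Ncapd2, Incenp and Kif20a, which act in mitosis, were not called with vehicle and were lower in HO15.19 with rapamycin.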

How the results depend on the processing

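Of 140 named genes 118 kept their call status and direction in every alternative run that tested them, and no gene changed direction. The run on probes detected on all 6 vehicle arrays tested only 119 of the named genes. The count of called probes ranged over 2818 to 3158 when 1 array was left out. It was 2191 with arrays centred on the median of all probes (39.3% higher, against 49.5%) and 2317 with the methods' t-test on the 6 arrays. In the other alternatives it lay between 2997, for probes detected on all 6 vehicle arrays, and 3702. The count at 2-fold was 251 with no background correction and 302 on the authors' normalized values, and 580 to 641 with 1 array left out. The share of calls found again with rapamycin was 73.0% to 77.1% with 1 array left out. The count of probes detected in 1 line only was 111 when a probe had to have a detection p above 0.1 in the other line, 96 over all 6 arrays of each line, and 359 to 393 with 1 array left out, with 393 without HO15.19 control replicate 3. The sign of the list median held for 26 lists, or for 25 where immediate early genes turned, with medians of -0.06 and -0.04 under centring on all and on tested probes, and this count was 25 to 26 with 1 array left out. With a replicate block 3354 probes were called, 3249 of them shared, and no named gene lost its call. Aldoa, Ccng2, Egr1, Hspb1, Ier3, Pdpk1, Tes and Tpm1 lost their call under centring on all probes, and Amd1, Cenpi, Egr1, Eno1, Klf4, Mxd4, Myl9, Pfkp, Slc25a3, Slc25a5, Slc6a9, Slc7a5 and Tpm1 in the methods' t-test. Tpm1, Tpm3, Egr1, Ccng2, Slc6a9 and Amd1 lost it without some single array, and Zxdc gained one without HO15.19 replicate 3 or TGR-1 replicate 3. Signal near the detection limit bounds the values of probes detected in 1 line only, and a chip block was not run.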

Other observations

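Named genes were also set out by chromosome, using RefSeq positions on GRCr8. On chromosome 7, which carries Myc, 115 named genes had a median difference of -0.32, with 13 called higher and 51 lower. Of all named probes 27.8% were called higher and 27.9% lower. The lower genes of chromosome 7 include Bop1, Shmt2, Eif3e, Eef2, Mars1 and Csrp2, and the higher ones Itga7 and Ddit3. A part of the chromosome in the list counts was not tested. On chromosome 10 the 124 named genes had a median of 0.23, with 54 higher and 21 lower, and on chromosome 18 the counts were 3 higher and 13 lower of 35. The medians of the other chromosomes lay between -0.14 on the X chromosome and 0.18 on chromosome 13. These are descriptions of the named set with no test, and copy number was not measured.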
